A study of Mus musculus with 10 samples.

Results

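Ceruloplasmin, lipocalin 2 and their companions in iron handling were followed in whole B16OVA tumors as a group of 10 genes: Cp, Lcn2, Hp, Saa3, Slc40a1, Slc11a1, Tfrc, Hmox1, Steap4 and Fth1. They are 10 of the 19505 genes that the annotation of the array names, each was represented by 1 probe set, and all 10 passed the filter on low values. The genes were selected on earlier results of these same arrays, so their differences between BO-112 and Vehicle tumors are given as descriptions, and nothing is read from a test of them.

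B16OVA cells, a mouse melanoma line expressing ovalbumin, were grown as subcutaneous tumors in female C57BL/6 mice that were 8 to 10 weeks old. The BO-112 group (5 mice) received 2 intratumoral injections of BO-112, a complex of Poly I:C, a synthetic double-stranded RNA, with polyethylenimine, at 2.5 mg/kg. The Vehicle group (5 mice) received the 5% glucose carrier in the same way. Tumors were taken whole 48 h after the last injection, and the RNA of each was read on its own Clariom S Mouse array, every tumor deriving from the same cell line. Values are log2 signals after robust multichip averaging (RMA), so that 1 unit is a doubling of signal. Levels are compared only within a probe set, never between genes.

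Cells import iron as transferrin bound to the transferrin receptor, keep it inside ferritin, and release it through ferroportin, while ceruloplasmin, a copper ferroxidase, oxidizes the released iron so that transferrin can carry it. Infection and inflammation shift this traffic: lipocalin 2 captures the siderophores with which bacteria scavenge iron, haptoglobin binds free hemoglobin, heme oxygenase 1 opens the heme ring, and SLC11A1 pumps metal ions out of the phagosome of macrophages. Several of these proteins, with the serum amyloid A family, belong to the acute phase response.

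All 11 melanocyte lineage markers exceeded the 75th percentile of the array's negative control probe sets, used here as the background level, on all 10 arrays, and the mean of that list lay between 10.17 and 11.50 in BO-112 tumors and between 11.41 and 11.61 in Vehicle tumors. Array medians lay between 6.25 and 6.43. The array contrast, which is the chance of a positive control outranking a negative control on the same array, averaged 0.864 ± 0.0144 over the 5 BO-112 arrays and 0.882 ± 0.00933 over the 5 Vehicle arrays (means with SD, two-sided exact permutation p = 0.0794), and was lowest in BO-112 mice 2 (0.845) and 5 (0.855). In tumor RNA of this kind, fewer cells of a type and less RNA per cell cannot be told apart. The p-values set differences or correlations against the variation between tumors. Each tumor was read on 1 array, so variation of mice and of arrays cannot be separated.

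Cp had the clearest separation of the 10 genes. Its signal was 11.57, 10.41, 10.90, 10.74 and 10.68 in BO-112 mice 1 to 5 and 8.71, 8.59, 9.05, 8.76 and 8.67 in Vehicle mice 1 to 5. Every BO-112 tumor lay above every Vehicle tumor, with a gap of more than 1 log2 unit between the groups. The means were 10.86 ± 0.43 and 8.76 ± 0.18 (SD, n = 5 each), a difference of 2.10 (SE 0.19, 95% interval 1.68 to 2.52), or 4.29-fold. Cp was the only member whose groups did not overlap, beside 8.69% of all 21792 tested probe sets, and nothing is read from that count because the genes were chosen by this contrast. Over 19 alternative settings its difference lay between 1.92 and 2.31. Leaving out the 2 BO-112 arrays of lowest contrast gave 2.31.

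Slc40a1 encodes ferroportin, the iron exporter that works beside ceruloplasmin, and its signal stood near background. It was 6.11, 6.22, 6.0, 5.64 and 6.17 in the BO-112 tumors and 5.14, 6.33, 5.91, 6.78 and 6.15 in the Vehicle tumors, above the background level on 2 and 3 arrays. The groups overlapped throughout, with a difference of -0.04 (SE 0.25, 95% interval -0.59 to 0.52). The spread was wider in Vehicle (SD 0.61) than in BO-112 tumors (SD 0.23).

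Lcn2, the siderophore-binding lipocalin, had the largest measured difference of the 10 genes and one of the widest spreads. The BO-112 tumors gave 6.61, 8.46, 9.31, 5.92 and 9.28, and the Vehicle tumors 5.09, 6.06, 5.36, 5.07 and 4.52. BO-112 mouse 4 fell below Vehicle mouse 2, while mice 2, 3 and 5 stood well apart from all Vehicle tumors. The means were 7.91 ± 1.56 and 5.22 ± 0.56 (SD, n = 5 each), a difference of 2.69 (SE 0.63, 95% interval 1.32 to 4.06). No Vehicle array exceeded the background level and 4 of 5 BO-112 arrays did, so the difference of signals is better stated as a bound, and against the background level Lcn2 was at least 3.30-fold higher in BO-112 tumors (2.60 to 4.67 as each mouse was left out). That bound is 1.72 log2 units, so the rank of Lcn2 above Saa3 (2.38) and Cp (2.10) rests on Vehicle signals under background. Without BO-112 mice 2 and 5 the measured difference was 2.06, and with array contrast as a covariate it was 1.87.

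Saa3, the serum amyloid A gene that mouse macrophages and adipocytes express, was higher in 4 of 5 BO-112 tumors than in any Vehicle tumor. Its signal was 10.05, 10.10, 10.75, 8.6 and 12.07 in BO-112 mice 1 to 5 and 7.85, 8.34, 7.43, 8.81 and 7.22 in Vehicle mice 1 to 5. Again BO-112 mouse 4 was the one that reached into the Vehicle range. The difference was 2.38 (SE 0.53, 95% interval 1.21 to 3.56), from means of 10.31 ± 1.26 and 7.93 ± 0.65 (SD, n = 5 each). It was 1.87 without BO-112 mice 2 and 5, and lay between 1.68 and 2.81 over 19 alternative settings.

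Hp encodes haptoglobin and varied more between tumors of a group than between the groups. BO-112 tumors gave 8.35, 9.10, 10.69, 7.17 and 10.70, and Vehicle tumors 8.07, 9.90, 7.80, 9.24 and 5.59. Only BO-112 mice 3 and 5 exceeded the highest Vehicle tumor. The difference was 1.08 with an interval that spans 0 (SE 0.85, 95% interval -0.77 to 2.93). It fell to 0.23 with array contrast as a covariate, and over the leave-one-out fits it ran from 0.45 to 1.59.

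**Figure D1:**
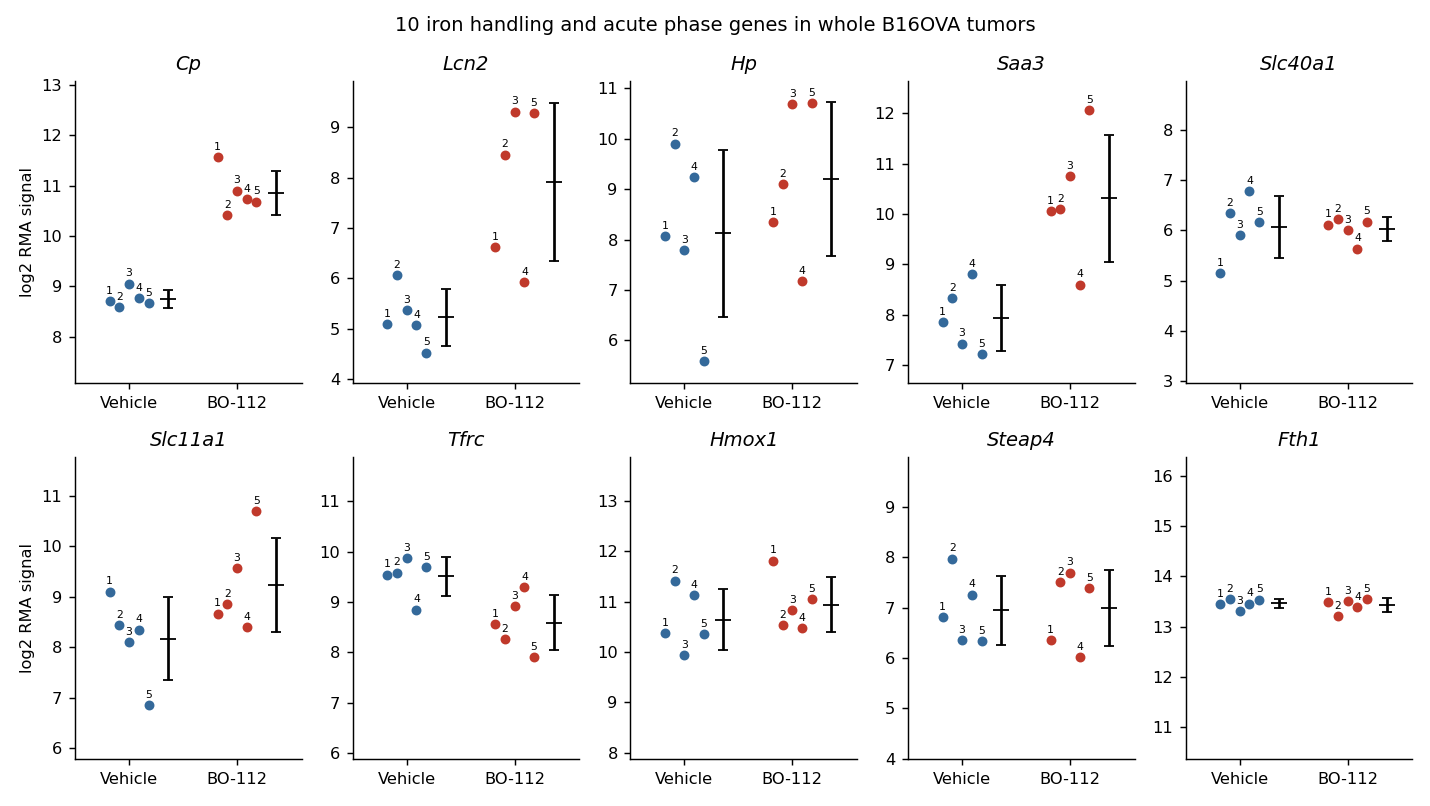
Log2 RMA signal of the 10 genes in each tumor, Vehicle in blue and BO-112 in red, with the mouse number above each point, and group mean with SD as a black bar. Each panel spans 6 log2 units. The Cp groups are apart, Lcn2 and Saa3 overlap through BO-112 mouse 4, and Fth1 varies little.

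Cp, Lcn2 and Saa3 were also the 3 members that limma called at an adjusted p under 0.05, all higher in BO-112. Of 19 alternative settings, the call stood in 19 for Cp, 9 for Saa3 and 7 for Lcn2. Over all tested probe sets 5.22% were called, 2.43% higher and 2.79% lower (529 and 609 probe sets, or 436 and 855 with each array centred on its median). This count repeats the contrast that selected the genes and is no evidence about them.

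The sequences in front of these 3 genes are shown because they are the members with the largest differences. RefSeq's promoter table (GRCm38.p6) listed 7 of the 10 genes, with 10 start sites, and the 250 bases before a start are printed 5′ to 3′. Cp has a pair of starts, and the first lies after chr3:19956804-19957053 on the plus strand. The windows of Lcn2 (chr2:32387740-32387989) and Saa3 (chr7:46715677-46715926) are on the minus strand. Capitals mark matches, on either strand, to 5 letter patterns that usually stand for NF-kB (GGGNNNNNCC), C/EBP (TTNNGNAA), the interferon-stimulated response element (GAAANNGAA), the STAT element (TTCNNNGAA) and the TATA box (TATAAA).
Cp, first start: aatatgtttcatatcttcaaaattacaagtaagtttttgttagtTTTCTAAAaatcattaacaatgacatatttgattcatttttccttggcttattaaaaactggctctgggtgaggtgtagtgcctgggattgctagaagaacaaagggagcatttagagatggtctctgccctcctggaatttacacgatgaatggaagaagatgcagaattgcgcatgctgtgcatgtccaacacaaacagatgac
Lcn2: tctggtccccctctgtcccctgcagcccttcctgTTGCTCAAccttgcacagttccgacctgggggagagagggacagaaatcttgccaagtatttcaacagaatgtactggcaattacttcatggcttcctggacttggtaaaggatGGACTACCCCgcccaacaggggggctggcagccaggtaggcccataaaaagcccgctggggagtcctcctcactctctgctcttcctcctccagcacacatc
Saa3: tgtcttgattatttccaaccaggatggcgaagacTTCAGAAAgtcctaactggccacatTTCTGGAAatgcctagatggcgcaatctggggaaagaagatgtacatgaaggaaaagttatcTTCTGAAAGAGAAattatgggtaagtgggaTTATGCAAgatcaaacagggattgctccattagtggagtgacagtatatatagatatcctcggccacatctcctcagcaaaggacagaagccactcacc

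The Lcn2 window held 1 match to the NF-kB pattern, GGACTACCCC at positions -102 to -93 (-1 is the last base before the start), and 1 to C/EBP. Saa3 held 4 matches to C/EBP, among them TTATGCAA at -99 to -92, and 1 to the interferon element, GAAAGAGAA at -125 to -117, which overlaps a C/EBP match. The window of the first Cp start held a single match, to C/EBP. Before the second Cp start, a window on chr3:19956999-19957248 that overlaps the first, the matches were GGTTTTTCCC at -146 to -137 (NF-kB), TTTTGCAA at -70 to -63 (C/EBP) and the TATA pattern at -25 to -20, overlapped by its own reverse match at -27 to -22. Such letters are common: of 32851 promoter windows of this length, 45.8% held the NF-kB pattern, 36.8% C/EBP, 7.13% the interferon element, 7.02% the STAT element and 12.4% the TATA pattern. A match describes the letters of the window and not a site in use.

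Tfrc, the transferrin receptor through which most cells import iron, was the member with the largest difference downward. Its signal was 8.57, 8.26, 8.92, 9.29 and 7.90 in the BO-112 tumors and 9.55, 9.58, 9.87, 8.85 and 9.70 in the Vehicle tumors. BO-112 mice 1, 2 and 5 lay below every Vehicle tumor, and mice 3 and 4 overlapped only with Vehicle mouse 4. The difference was -0.92 (SE 0.26, 95% interval -1.49 to -0.35), and it shrank to -0.58 without BO-112 mice 2 and 5 and to -0.46 with array contrast as a covariate.

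Steap4 encodes a metalloreductase that turns ferric into ferrous iron and cupric into cuprous copper. BO-112 tumors gave 6.36, 7.51, 7.70, 6.02 and 7.38, Vehicle tumors 6.82, 7.97, 6.35, 7.26 and 6.33. The ranges nearly coincided, with a difference of 0.05 (SE 0.39, 95% interval -0.80 to 0.90).

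Slc11a1, the phagosomal metal transporter also known as Nramp1, had signals of 8.67, 8.85, 9.57, 8.40 and 10.71 in the BO-112 tumors and 9.10, 8.44, 8.10, 8.35 and 6.85 in the Vehicle tumors. BO-112 mouse 5 was the highest of all and Vehicle mouse 5 the lowest, while the rest overlapped. The difference was 1.07 (SE 0.47, 95% interval 0.04 to 2.10). It ranged from 0.70 to 1.30 as each mouse was left out, and was 0.38 with array contrast as a covariate.

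Hmox1, the inducible heme oxygenase, and Fth1, the ferritin heavy chain, were both strongly detected on every array. Hmox1 was 11.82, 10.53, 10.84, 10.48 and 11.05 in the BO-112 tumors and 10.37, 11.42, 9.94, 11.13 and 10.36 in the Vehicle tumors, a difference of 0.30 (SE 0.31, 95% interval -0.39 to 0.99). BO-112 mouse 1 alone exceeded the Vehicle range. Fth1 lay between 13.20 and 13.55 in the BO-112 tumors and between 13.31 and 13.54 in the Vehicle tumors. Its difference of -0.03 (SE 0.10) had the narrowest interval of the 10 genes, -0.25 to 0.18.

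**Figure D2:**
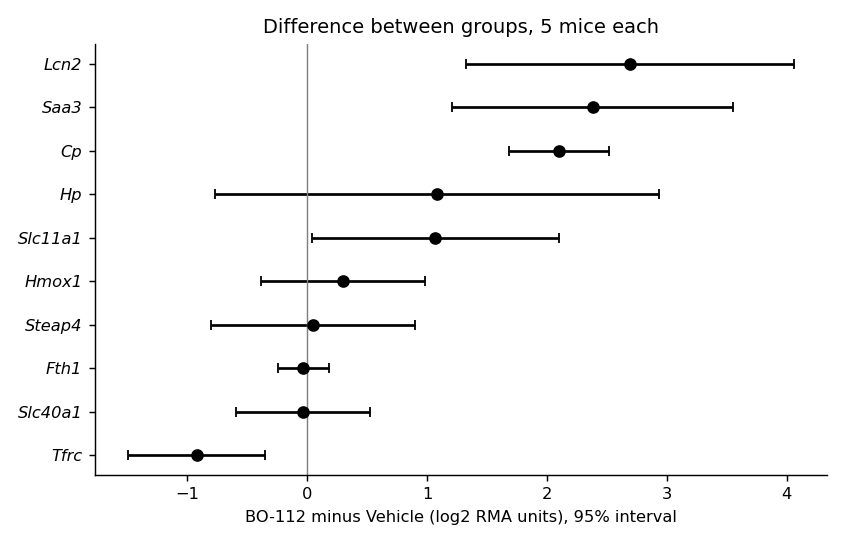
Difference of the group means (BO-112 minus Vehicle, log2 RMA units) of each gene, with its 95% interval from limma, 5 mice per group. Lcn2 (2.69), Saa3 (2.38) and Cp (2.10) lie to the right, Tfrc (-0.92) to the left, and the interval of Cp is much narrower than those of Lcn2 and Saa3.

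The members also differed in how they varied among tumors of the same group. The median within-group SD of all tested probe sets was 0.23. Hp (SD 1.59) exceeded 99.8% of them, Lcn2 (1.17) 99.4%, Saa3 (1.0) 98.9%, Slc11a1 (0.88) 98.4% and Steap4 (0.72) 97.1%. Fth1 (0.12) exceeded 7.2% of them, and Cp (0.33) 76.7%. In these 5 variable genes, the lowest BO-112 tumor was mouse 4 and the lowest Vehicle tumor mouse 5 every time. The shares are over all tested probe sets and were not matched for signal. Array medians (6.25 to 6.43) stood close to the background levels (6.07 to 6.30), so many of these probe sets lay near background.

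Whether members rose and fell together across tumors was asked on deviations from the group means, which do not use the contrast that selected the genes. Of 45 pairs, 2 passed at an adjusted p under 0.05 by Pearson's r (exact permutation within groups, two-sided, 14400 permutations, Benjamini-Hochberg over the 45 pairs), 10 had an unadjusted p under 0.05, and 0 passed by Spearman's rho. Hp and Saa3 gave r = 0.838 (exact permutation p = 0.00174, adjusted 0.0438) and rho = 0.891 (p = 0.00257, adjusted 0.0609), and r = 0.889 without the 2 arrays farthest from the median of Hp. Hp and Lcn2 gave r = 0.822 (exact permutation p = 0.00194, adjusted 0.0438) and rho = 0.806 (p = 0.00813, adjusted 0.0609), and r = 0.699 without the 2 arrays farthest from the median of Lcn2. Both passed in 3 of 14 alternative settings, which were quantile normalization and the omission of Vehicle mouse 1 or 4. Over all 14 the r of Hp and Saa3 lay between 0.782 and 0.891, and that of Hp and Lcn2 between 0.755 and 0.891. Pairs of other genes were not tested in this way, so these values are not shown to be particular to the members.

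Steap4 had high r with the same genes, but no pair of it passed. Its r was 0.873 with Hp and 0.846 with Lcn2 (exact permutation p = 0.00458 and 0.00507, both adjusted to 0.057), with rho of 0.867 and 0.891 (adjusted p = 0.0609 each), and r of 0.93 and 0.842 without the 2 farthest arrays. Cp stood outside the group: its r with the other 9 genes, pooled over both groups, lay between -0.47 and 0.35. For Hmox1 and Fth1 this pooled r combines opposite signs. With Cp, Hmox1 gave 0.89 in BO-112 and -0.70 in Vehicle tumors, and Fth1 gave 0.56 and -0.97. These values rest on 5 arrays each and were not tested. Tfrc ran opposite to Saa3 (r = -0.808, exact permutation p = 0.0131, adjusted 0.0839; rho = -0.685, adjusted p = 0.227), and r was -0.907 without the 2 arrays farthest from the median of Saa3.

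**Figure D3:**
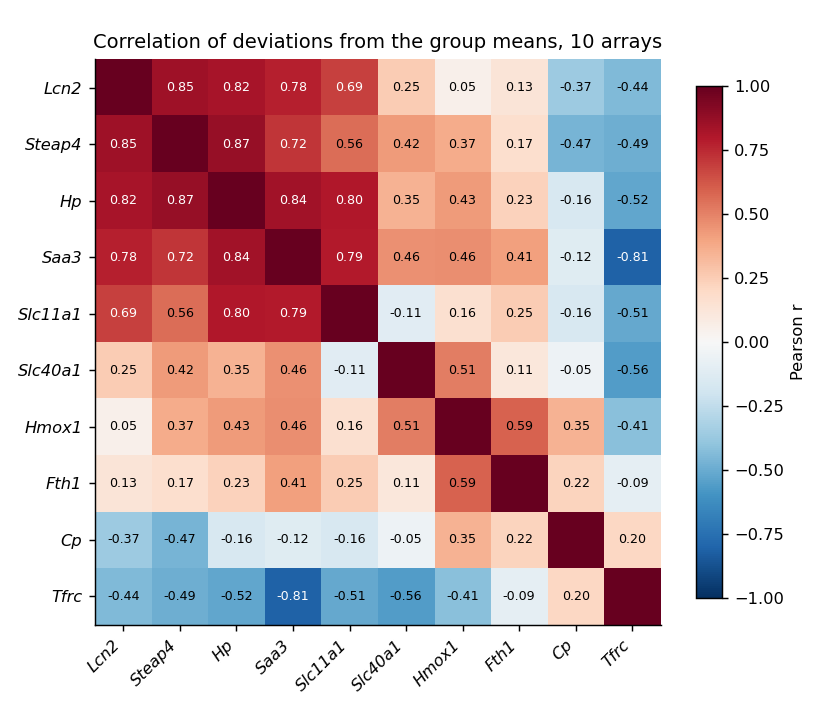
Pearson's r of the deviations from the group means over the 10 arrays, for each pair of genes, from -1 (blue) to 1 (red). Lcn2, Steap4, Hp, Saa3 and Slc11a1 form a block of positive values from 0.56 to 0.87, while Cp and Tfrc lie outside it.

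Levels of markers of other cell types were set beside the members, by a choice made after the values were seen. The mean of the monocyte and macrophage list lay between 6.62 and 8.05 in BO-112 and between 6.12 and 7.42 in Vehicle tumors, and 1 of its 17 tested genes was called higher (Ly6c2, 3.57) and 1 lower (Mrc1, -2.79). The neutrophil list mean was 5.46 to 6.79 against 5.22 to 5.70. All 15 tested neutrophil genes had a positive difference and 0 were called by limma, with 9 at an unadjusted p under 0.05, and 5 of the 15, Ltf and Mpo among them, were above background on no array. Over all tested probe sets 52.3% had a positive difference and 25% an unadjusted p under 0.05. All 9 endothelial, all 10 skeletal muscle and all 10 keratinocyte genes also had a positive difference with 0 called, while 10 of 11 melanocyte lineage genes had a negative one, of which Oca2 (-1.18) was called. Fibroblast genes averaged 7.14 to 9.71 against 6.31 to 9.06. In 8 of 14 hepatocyte genes, Alb included, no array exceeded background.

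Of 110 relations between a member and a marker list mean or the array contrast, 13 passed at an adjusted p under 0.05 by Pearson's r (exact permutation within groups, 10 arrays). Slc11a1 followed the monocyte and macrophage mean (r = 0.959, adjusted exact permutation p = 0.0138), with rho = 0.939 (adjusted p = 0.0115) and r = 0.826 without the 2 farthest arrays. Slc11a1 also passed with 3 more lists, the endothelial (r = 0.946), fibroblast (0.871) and skeletal muscle (0.854) means. Its relation was thus not particular to the macrophage list. Hp followed the fibroblast mean (r = 0.932, adjusted exact permutation p = 0.0138; rho = 0.903, adjusted p = 0.0115; r = 0.886 without the 2 farthest arrays) and 3 more, adipocyte, endothelial and macrophage genes. Saa3 passed with 3 lists, of which the fibroblast one gave r = 0.876 (adjusted exact permutation p = 0.0138; rho = 0.952, adjusted p = 0.00764; r = 0.936 without the 2 farthest arrays). Steap4 passed with the adipocyte mean (r = 0.888, adjusted exact permutation p = 0.0164; rho = 0.818, adjusted p = 0.0284; r = 0.78 without the 2 farthest arrays).

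For Lcn2 no list passed. Its r was highest with the skeletal muscle mean (0.802, exact permutation p = 0.0211, adjusted 0.106; rho = 0.794, adjusted p = 0.131; r = 0.681 without the 2 farthest arrays), followed by the endothelial (0.765), monocyte and macrophage (0.69), adipocyte (0.677) and fibroblast (0.673) means, each with an adjusted exact permutation p between 0.0644 and 0.0966. With the neutrophil mean it was 0.616 (exact permutation p = 0.205, adjusted 0.459; rho = 0.346, adjusted p = 0.586; r = 0.515 without the 2 farthest arrays). Tfrc followed the melanocyte lineage mean by r (0.791, adjusted exact permutation p = 0.0344; r = 0.739 without the 2 farthest arrays) but not by rho (0.758, adjusted p = 0.131). No relation of Cp passed, its r lying between -0.44 and 0.28. The part of these cell types in the differences between groups was not tested.

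**Figure D4:**
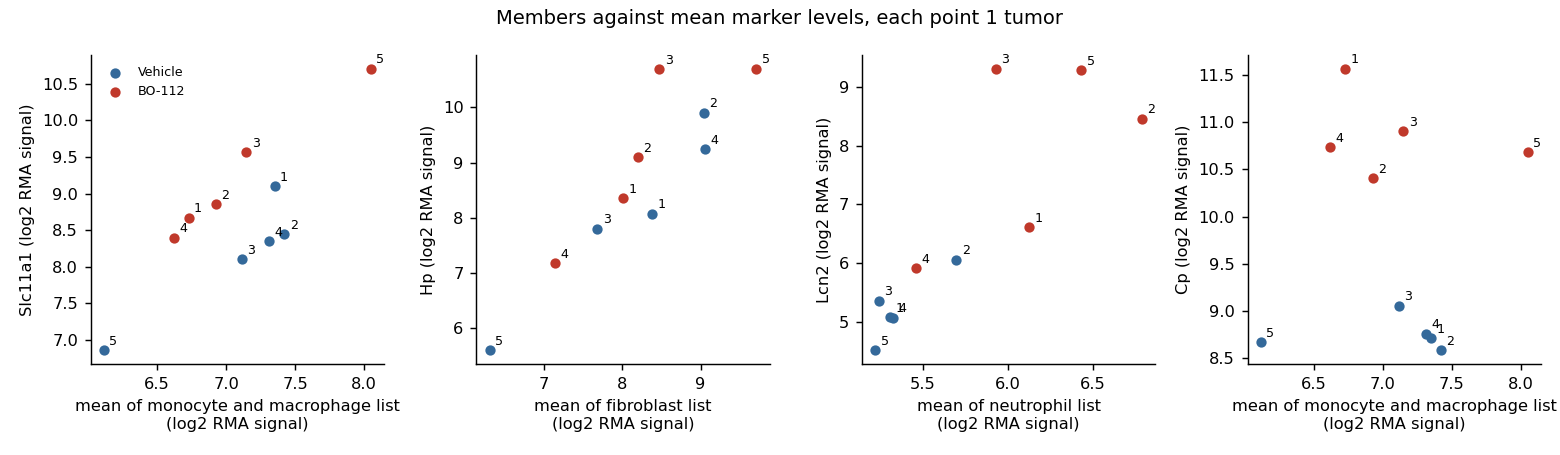
Log2 RMA signal of Slc11a1, Hp, Lcn2 and Cp (vertical) against the mean log2 signal of a marker list (horizontal), 1 point per tumor with its mouse number, Vehicle in blue and BO-112 in red. Slc11a1 and Hp climb with their lists within both groups, and Cp splits by group at any level of the macrophage list.

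The named genes whose deviations were most like those of a member were ranked over 10 arrays among 19175 others, as a description. For Slc11a1 they were Adgre1 (r = 0.994), a macrophage surface receptor, Pirb (0.992) and Glipr1 (0.989). Hp was closest to Mup9 (0.99), Ghr (0.988) and Mup22 (0.983), of which the Mup genes are near-identical copies whose probe sets may not tell them apart. Saa3 was closest to Igf1 (0.978), Cd34 (0.968) and Tnxb (0.965), and Lcn2 to Palmd (0.956), Mxd1 (0.953) and Ttc9 (0.929). Steap4 came nearest to Lipe (0.933), the hormone-sensitive lipase, then Ndn (0.928) and Pla2r1 (0.917). For Tfrc the nearest were Ddx41 (0.99), Nop2 (0.98) and Pnn (0.976). Cp had looser neighbours in Arfip2 (0.94), Oas1c (0.92) and Tti2 (0.91). The top neighbours of Hmox1, Slc40a1 and Fth1 were Rcn3 (0.966), Tmem163 (0.952) and Adm (0.915).

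Beyond the 10 members, 8 lists of iron, heme, copper, acute phase and NRF2 genes held 154 genes, of which 145 were tested. The lists were written with earlier results of these same arrays known. Their shares and calls are therefore descriptions and no independent evidence about these pathways. limma called 6 higher and 4 lower in BO-112 tumors, 6.9% of them, beside 5.22% of all tested probe sets, and their median difference was 0.02 beside 0.01 over all tested. At an unadjusted p under 0.05 there were 48 (33.1%), beside 25% of all tested. With array contrast as a covariate, or with the mouse number as a replicate block, 0 list genes were called. Under the covariate the difference of Il6 was 0.78, that of Orm1 0.32, Commd1 -0.44, Pcbp1 -0.39 and Isca1 -0.34, each more than 1.5 times nearer to 0 than without it, and without BO-112 mice 2 and 5 Il6 (0.90) and Pcbp1 (-0.47) were likewise nearer. Among the 10 called genes, none passed in more than 12 of the alternative settings. The count of called list genes was 0 without BO-112 mouse 1 and without Vehicle mouse 3 or 4, 1 without Vehicle mouse 2 or 5, 4 to 6 without BO-112 mouse 2, 3 or 5 or Vehicle mouse 1, and 26 without BO-112 mouse 4.

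In iron uptake and reduction, 1 of 15 genes rose and 0 fell. It was Steap2, a metalloreductase related to Steap4, at 6.77 to 7.15 (median 6.91) in BO-112 against 6.09 to 6.63 (median 6.54) in Vehicle tumors, a difference of 0.54 (SE 0.14, limma adjusted p = 0.0427). Its relatives Steap1 (0.39, adjusted p = 0.152) and Steap3 (-0.61, adjusted p = 0.228) did not pass, nor did the transferrin gene Trf (0.29, adjusted p = 0.524) or the divalent metal transporter Slc11a2 (-0.22, adjusted p = 0.357). The call of Steap2 stood in 6 of 19 alternatives.

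Among 9 genes of iron export, oxidation and storage, 0 rose and 1 fell. Pcbp1, a chaperone that hands iron to ferritin, was 9.71, 9.38, 9.90, 10.001 and 9.13 in the BO-112 tumors and 10.13, 10.30, 10.30, 10.46 and 10.54 in the Vehicle tumors. The groups did not overlap, and the difference was -0.72 (SE 0.17, limma adjusted p = 0.0344). Ferritin light chain Ftl1 (-0.20, adjusted p = 0.247) and hephaestin, Heph (-0.11, adjusted p = 0.565), a ferroxidase like ceruloplasmin, did not pass. Heph exceeded background on no array.

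In iron sensing and the hepcidin axis 1 of 17 genes fell and 0 rose. Aco1 encodes iron regulatory protein 1, which binds the iron responsive elements of ferritin and transferrin receptor messengers when iron is scarce. Its signal was 7.89 to 8.27 (median 8.13) in BO-112 against 8.36 to 8.93 (median 8.65) in Vehicle tumors, without overlap, a difference of -0.54 (SE 0.13, limma adjusted p = 0.0357). Its partner Ireb2 differed by -0.35 (adjusted p = 0.2), Fbxl5, which marks Ireb2 for degradation, by 0.11 (adjusted p = 0.603), and Hamp, the gene of hepcidin, by 0.03 (adjusted p = 0.891).

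Of 25 tested genes of heme synthesis, transport and breakdown, 1 rose and 0 fell. Spic, the transcription factor of red pulp macrophages that recycle heme iron, gave 5.85, 5.81, 6.94, 5.97 and 7.98 in the BO-112 tumors and 5.09, 5.05, 5.13, 4.97 and 4.56 in the Vehicle tumors. The groups were apart, with a difference of 1.55 (SE 0.37, limma adjusted p = 0.0383), though 0 Vehicle and 2 BO-112 arrays exceeded background. No fold is given, because without BO-112 mouse 5 the BO-112 mean of Spic was 6.14, under the mean background level of 6.19. Bach1, the heme-sensing repressor of Hmox1, differed by 0.19 (adjusted p = 0.343), and the hemoglobin-haptoglobin receptor Cd163 by -0.43 (adjusted p = 0.277).

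Of 20 tested mitochondrial iron and iron-sulfur genes, 1 rose and 1 fell. A negative difference was found in 16 (list median -0.14), beside 10398 of all 21792 tested probe sets (median 0.01). Slc25a37, or mitoferrin 1, which carries iron into mitochondria, was 7.98, 7.06, 8.23, 7.94 and 7.92 in the BO-112 tumors and 7.25, 7.24, 7.11, 6.56 and 6.61 in the Vehicle tumors. Only BO-112 mouse 2 entered the Vehicle range. Its difference was 0.87 (SE 0.22, limma adjusted p = 0.0474), and the iron-sulfur assembly factor Isca1 was lower by -0.55 (SE 0.13, adjusted p = 0.0374). Copper genes gave 0 higher and 1 lower of 15, Commd1 (-0.87, SE 0.20, limma adjusted p = 0.0315), which takes part in copper export.

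In the acute phase and metal withholding list, 2 of 27 tested genes rose and 0 fell, and 24 of the 27 (88.9%) had a positive difference, beside 52.3% of all tested probe sets. On no array did Saa2, Saa4, Orm2, Orm3, Itih3, Fga, Fgb, Fgg, Crp, Apcs, Hpx, Ambp or Ltf exceed background. The count of positive differences thus includes many genes measured only at background. The list holds Ltf, S100a8 and S100a9, which are also counted among the neutrophil markers. Il6, the cytokine that drives the hepatic acute phase, differed by 1.56 (SE 0.39, limma adjusted p = 0.0448) and Orm1 by 0.76 (SE 0.20, adjusted p = 0.0486). The BO-112 means of Il6 (5.75) and Orm1 (5.96) were both under the background level, so no fold is given. S100a8 (1.89, limma adjusted p = 0.115) and S100a9 (1.86, adjusted p = 0.0703), which together form the zinc-binding and calcium-binding calprotectin, did not pass. S100a8 exceeded background on 3 BO-112 and 0 Vehicle arrays, and S100a9 on 4 and 1. Their differences are thus taken from Vehicle signals mostly under background. The signals of the liver forms Saa1 (0.06, limma adjusted p = 0.814) and Saa2 (0.05, adjusted p = 0.86) hardly differed in mean. Saa1 exceeded background on 4 of 10 arrays and Saa2 on none, while Saa3 did on all 10. The small differences of Saa1 and Saa2 therefore cannot show whether these genes stayed level. These near copies may also not be told apart by their probe sets.

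NRF2 targets and ferroptosis genes gave 1 higher and 0 lower of 20. Slc7a11, the cystine importer, was 8.17, 8.07, 7.85, 7.08 and 7.66 in the BO-112 tumors and 6.84, 7.07, 6.73, 6.81 and 6.76 in the Vehicle tumors. Each BO-112 tumor exceeded each Vehicle tumor, mouse 4 only just, and the difference was 0.92 (SE 0.19, limma adjusted p = 0.0202). Nfe2l2, which encodes NRF2 itself, differed by 0.15 (adjusted p = 0.518). Slc7a11 kept its call in 12 of 19 alternatives, Pcbp1 and Commd1 in 10, and the other 7 genes in 6 to 9 of 18 or 19.

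**Figure D5:**
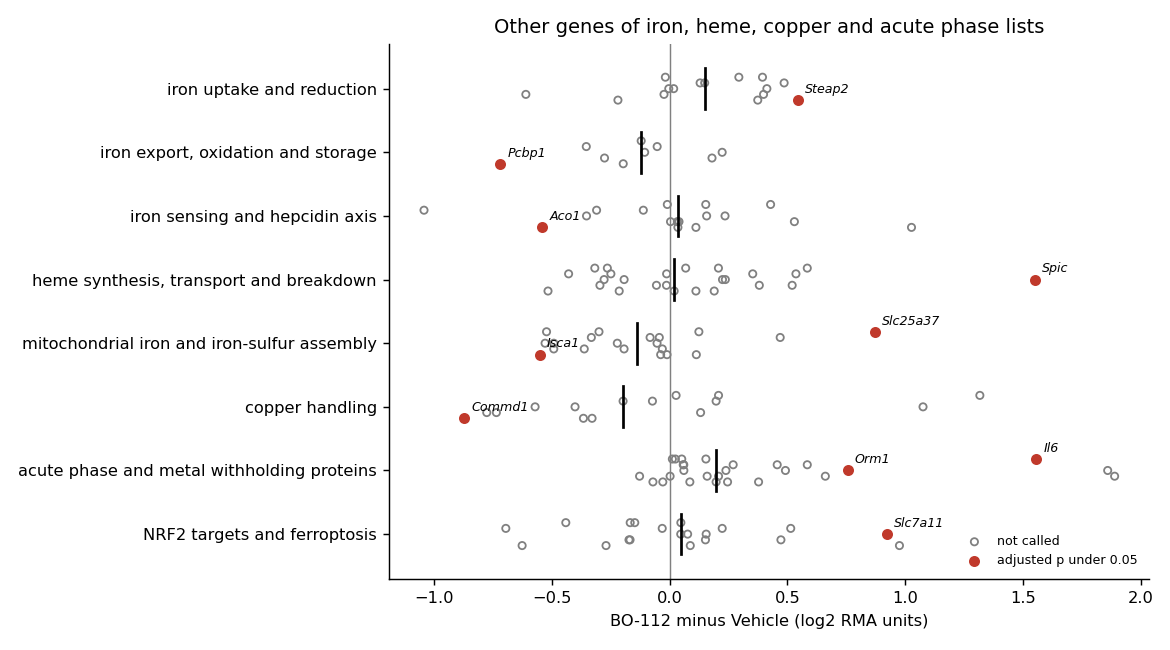
Difference (BO-112 minus Vehicle, log2 RMA units) of each tested gene in 8 lists, grey rings not called and red points called by limma at an adjusted p under 0.05 over all 21792 probe sets, with the list median as a black line. The 10 called genes run from Commd1 (-0.87) to Il6 (1.56).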

How the data were processed

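Whole B16OVA tumors of 5 BO-112 and 5 Vehicle mice, grouped and numbered by their labels, were measured on Clariom S Mouse arrays. The authors deposited log2 values after RMA, in a table of 29129 rows, of which 6923 were controls. No source used here gives the genome build behind the probe annotation. Following the methods of the study, transcript probe sets were kept where 3 or more arrays of a group exceeded 4, which left 21792 of 22206. The contrast was fitted by limma 3.58.1 under R 4.3.3 (moderated by eBayes, Benjamini-Hochberg over all kept probe sets, threshold 0.05). A gene was taken at its probe set of highest mean. Symbols came from the platform annotation.

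The members and the lists were chosen with earlier results of these data known. Members were described by their values, and their calls in that fit were counted but not read as evidence. Named genes were the members, up to 4 called genes of largest change per list or the 2 of lowest p, and 18 listed genes (Ftl1, Trf, Slc11a2, Heph, Ireb2, Aco1, Fbxl5, Hamp, Ltf, Nfe2l2, Bach1, Cd163, Saa1, Saa2, Steap1, Steap2, Steap3, Il6); Mrc1, Ly6c2, S100a8, S100a9, Alb, Mpo and Oca2 were added after their values were seen. Covariation within groups used exact permutations (Python 3.11.15, numpy 2.4.6, scipy 1.17.1). Array data carry no read depth, and 5 arrays per group limit the precision. On simulated data for this comparison (21792 probe sets), limma called 75 of 100 probe sets changed by 1 log2 unit and 95 of 100 changed by 2. The simulated noise was independent between probe sets, without any effect shared across an array. These counts therefore do not give the power on the real arrays. List genes without a tested probe set were not analysed here. Alternatives covered the filter, the scaling, the variance model, array quality, a replicate block and each mouse left out.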

Additional observations from a re-analysis of the deposited data

Results flagged for a closer look

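In 70 groups of 5 values, the 2 groups of each of the 10 members and the 25 other named genes, 4 had 1 tumor far from the rest of its group by Dixon's ratio at 95%, a rule that chance meets in about 1 in 20 groups. None concerned a member. Vehicle mouse 5 was lowest for Spic (4.56, next 4.97) and for Bach1 (7.78, next 8.19). BO-112 mouse 2 was lowest for Slc25a37 (7.06, next 7.92). BO-112 mouse 5 was highest for Saa2 (5.87, next 5.32).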

How the results depend on the processing

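Array contrast as a covariate left 27 called probe sets (21 higher, 6 lower), 0 of the list genes and 1 member. Leaving out BO-112 mice 2 and 5 gave 332 lower calls and 1 member. Array weights gave 1726 calls, 860 of them higher, and 16 list genes. The mouse numbers do not pair the samples by any label, and the correlation of same-numbered deviations ran from -0.31 to 0.39; with the number as a replicate block there were 102 calls (75 higher, 27 lower), 0 list genes and 1 member. Leaving out each mouse in turn, 347 to 3134 probe sets were called (211 to 1248 higher, 135 to 1886 lower), with 0 to 26 list genes and 1 to 4 members; the most came without BO-112 mouse 4 (3134, 26 and 4) and the fewest without Vehicle mouse 2 (347). Of the other list genes, 0 were called without BO-112 mouse 1 and without Vehicle mouse 3 or 4. For the pairs of members, 0 passed by Spearman's rho, with median centring and without BO-112 mice 2 and 5, and 0 to 5 as each mouse was left out. The cause was not tested.

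Uncalled genes near 0 changed sign. Hamp was -0.0539 with median centring, -0.0163 with quantile normalization, -0.0428 with array weights and -0.0506 without BO-112 mice 2 and 5, and ran from -0.0653 to 0.0818 as each mouse was left out. Under the same 4 settings Saa1 was -0.0268, -0.0317, -0.0191 and -0.0033 (-0.0491 to 0.1216 as each mouse was left out), and Saa2 was -0.0354, -0.0604, -0.0375 and -0.1095 (-0.0781 to 0.1096), with -0.1085 for Saa2 under the covariate. Members near 0 also changed sign, Steap4 running from -0.36 to 0.30, Slc40a1 from -0.27 to 0.14 and Fth1 from -0.12 to 0.03 over 19 alternatives, and Hp ran from 0.23 to 1.59. A mean over several probe sets of a gene could not be formed for the members, each having 1.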
